A study of Mus musculus with 7 samples.

Results

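The Cited family of the mouse kidney was examined across 7 RNA-seq libraries of whole E15.5 kidneys, from mid-gestation embryos. Its members were taken by symbol from the deposited table, which holds Cited1, Cited2 and Cited4, 3 of 16167 listed genes. The family was singled out with the lower Cited1 level in the mutants already known, so the values of its members are descriptions and carry no test. The 4 mutant libraries carried Six2-Cre and loxP-flanked Irx3 and Irx5 on both chromosomes, written Six2-Cre; Irx3/5(loxP/loxP) in the labels. The 3 control libraries carried the floxed alleles on one chromosome, written Irx3/5(loxP/+). The genotype tag of the controls is WT although they carry a floxed allele, and their titles name no Cre, so the deletion and the Cre transgene cannot be told apart. Six2-Cre acts in Six2-expressing nephron progenitors and the cells derived from them, while the stroma, ureteric tree and vessels of the kidney arise mostly from other cells. The labels give neither the sex of the embryos nor how many embryos each library holds, so the spread between libraries may be partly technical.

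CITED proteins are transcriptional coregulators that do not bind DNA themselves. Their conserved acidic carboxy-terminal domain binds the histone acetyltransferases CBP and p300, and through these they raise or damp the activity of DNA-bound factors such as TFAP2 and SMAD proteins. CITED2 also competes with HIF-1 alpha for CBP and p300 and thereby limits the response to low oxygen. In the mouse kidney Cited1 marks the least committed nephron progenitors of the cap mesenchyme, the pool that also expresses Six2, and is switched off as cells commit to form nephrons. The family has no Cited3 in mammals.

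The 3 genes lie on different chromosomes, and the DNA before their starts is shown as a description. In RefSeq on GRCm38.p6, which is not the build of the expression table, Cited1 lies on chromosome X, Cited2 on chromosome 10 and Cited4 on chromosome 4. The 250 bases before the outermost RefSeq start of each gene are printed 5′ to 3′, in lower case. Capitals mark matches, on either strand, to 3 motifs. The first is the TATA box, searched as TATAAA. The second is the core of the sites bound by hypoxia-inducible factors, searched as ACGTG. The third is a core bound by Iroquois factors, the family of Irx3 and Irx5, searched as ACATGT.
Cited1, chrX:102252182-102252431, minus strand: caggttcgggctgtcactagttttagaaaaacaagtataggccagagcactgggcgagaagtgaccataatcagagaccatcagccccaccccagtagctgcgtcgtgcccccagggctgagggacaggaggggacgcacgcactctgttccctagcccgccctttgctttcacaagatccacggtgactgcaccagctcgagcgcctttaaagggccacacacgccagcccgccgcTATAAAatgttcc
Cited2, chr10:17722978-17723227, plus strand: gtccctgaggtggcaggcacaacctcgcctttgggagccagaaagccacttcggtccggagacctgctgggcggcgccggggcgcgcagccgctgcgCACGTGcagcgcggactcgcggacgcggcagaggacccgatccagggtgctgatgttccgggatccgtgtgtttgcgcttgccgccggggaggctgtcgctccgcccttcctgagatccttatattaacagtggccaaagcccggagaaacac
Cited4, chr4:120666313-120666562, plus strand: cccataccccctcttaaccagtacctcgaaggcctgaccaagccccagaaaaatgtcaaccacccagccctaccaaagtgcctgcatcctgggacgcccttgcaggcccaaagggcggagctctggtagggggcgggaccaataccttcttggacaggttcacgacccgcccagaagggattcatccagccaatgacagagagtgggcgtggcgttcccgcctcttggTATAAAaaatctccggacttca

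Cited1 and Cited4 held TATAAA, starting 13 and 22 bases before the start. Cited2 held CACGTG, which contains ACGTG on each strand, 153 bases before its start. Cited1 has 2 further RefSeq starts inside the gene, whereas Cited2 and Cited4 have 1 start each. Cited1 thus had 3 windows in which a match could fall, and each paralogue 1. The 250 bases before the second of its 3 starts held ACATGT 143 bases before that start, in the following stretch of 30 bases.
Cited1, chrX:102251969-102251998, minus strand: ccacgagccaggACATGTgctaataatgct
The same window held TATAAA and ACGTG once each, and the window of the innermost start held no match. Of 32851 RefSeq promoter windows of the same length, 12.4% held TATAAA, 16.6% ACGTG and 4.58% ACATGT. These shares are per window, not per gene. No binding was measured here, and whether the motifs bear on the RNA levels was not tested.

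The targeted genes were looked at first. Irx3 stood at 6.63, 3.98, 5.57 and 6.75 FPKM (fragments per kilobase of gene, scaled to library depth) in mutants, against 14.7, 14.2 and 12.7 FPKM in controls. All mutants were below all controls. Irx5 stood at 2.05, 0.895, 1.13 and 2.03 FPKM in mutants and at 1.36, 1.55 and 1.59 FPKM in controls, and its groups overlapped. Which exons the loxP sites flank is not in the labels, so whether RNA from remaining exons was counted is not known. Why the groups overlapped for Irx5 was not tested. Reads in listed genes, recovered from the table, ran from 45539155 to 53497462 in mutants and from 40511920 to 69028943 in controls.

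Cited1 RNA was low in every mutant kidney. Cited1 (ENSMUSG00000051159.17) stood at 6.34, 4.68, 4.91 and 5.09 FPKM in mutants, against 23.3, 23.0 and 25.0 FPKM in controls. The groups lay far apart: the highest mutant library was well under the lowest control, and mutant replicate 1 was the highest of the mutants. The means were 5.25 ± 0.74 FPKM in mutants (SD, n = 4) and 23.8 ± 1.07 FPKM in controls (SD, n = 3), so the mutant mean was 22.1% of the control mean. On the log2(FPKM + 1) scale, which understates changes of low genes, the difference of mutant minus control was -1.99 (SE 0.095). Only 2 of 13466 genes tested had a lower difference. The authors' deposited table gives a log2 fold change of -2.17 (SE 0.125) for Cited1. These values rest on 599, 384, 397 and 458 reads in the mutants and on 2852, 2416 and 1800 reads in the controls. The coefficient of variation between libraries was 14.1% in mutants and 4.51% in controls, where counting error alone gives 4.74% and 2.10%. Since whole kidneys were sequenced, fewer Cited1-expressing cells and less Cited1 RNA per cell cannot be told apart.

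Cited2, the most abundant paralogue, overlapped between the groups. Cited2 (ENSMUSG00000039910.11) stood at 43.2, 35.1, 34.1 and 46.9 FPKM in mutants, against 48.2, 52.5 and 43.7 FPKM in controls. Mutant replicates 1, 2 and 3 were below all controls, the first of these only just, and mutant replicate 4 lay within the control range. The means were 39.8 ± 6.25 FPKM in mutants and 48.1 ± 4.39 FPKM in controls (SD, n = 4 and 3), a log2 difference of -0.28 (SE 0.12). With 3857 to 8279 reads per library, counting error was 1.46% in mutants and 1.26% in controls, beside coefficients of variation between libraries of 15.7% in mutants and 9.12% in controls.

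Cited4, the least abundant member, was lower in all mutants, with a wide spread among them. Cited4 (ENSMUSG00000070803.7) stood at 4.53, 1.97, 4.33 and 3.46 FPKM in mutants, against 5.97, 4.96 and 5.89 FPKM in controls. The groups did not overlap, but the gap between mutant replicate 1 and control replicate 2 was narrow, and mutant replicate 2 was far below the rest. The means were 3.57 ± 1.17 FPKM in mutants and 5.61 ± 0.56 FPKM in controls (SD, n = 4 and 3), a log2 difference of -0.57 (SE 0.20). Without mutant replicate 2 the difference was -0.37. Cited4 had 115 to 521 reads per library, and its coefficient of variation of 32.6% in mutants exceeded the counting error of 7.16%.

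**Figure D1:**
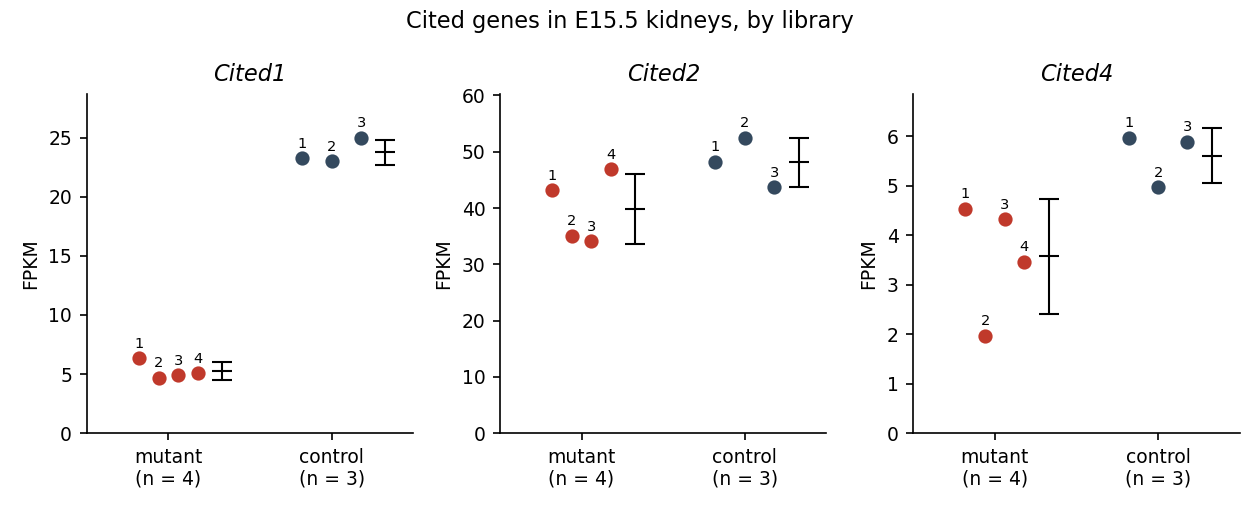
FPKM of Cited1, Cited2 and Cited4 in each of 4 mutant and 3 control libraries. Points are libraries with their replicate number, and bars beside them show mean and SD. Cited1 is at 4.68 to 6.34 FPKM in mutants and at 23.0 to 25.0 FPKM in controls, whereas the groups overlap for Cited2 and lie close together for Cited4.

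All 3 members passed the filter on low values, which asked for 1 FPKM or more in 3 libraries or more. In the limma fit over all genes, 1 of the 3, Cited1, passed an adjusted p under 0.05 as lower in mutants, as did 1.05% of all genes tested (0.475% passed as higher). Groups without overlap and lower in mutants were seen for 2 members, Cited1 and Cited4, and for 8.61% of all genes tested. The family was chosen on this contrast, so nothing is read from these counts. The log2 difference of Cited1 ranged from -2.07 to -1.95 when each library was left out in turn, which is likewise a description.

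Cited1 made up a smaller part of the family's RNA in every mutant than in any control. FPKM corrects for gene length, so the members' levels can be set side by side. Cited1 made up 11.7%, 11.2%, 11.3% and 9.17% of the summed FPKM of the 3 genes in mutants, against 30.0%, 28.6% and 33.5% in controls. Cited2 made up 78.7% to 84.6% in mutants and 58.6% to 65.2% in controls. The share of Cited4 overlapped, at 4.71% to 9.99% in mutants and 6.17% to 7.89% in controls. The summed level of the family was 48.7 ± 7.12 FPKM in mutants and 77.5 ± 2.94 FPKM in controls (SD, n = 4 and 3).

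**Figure D2:**
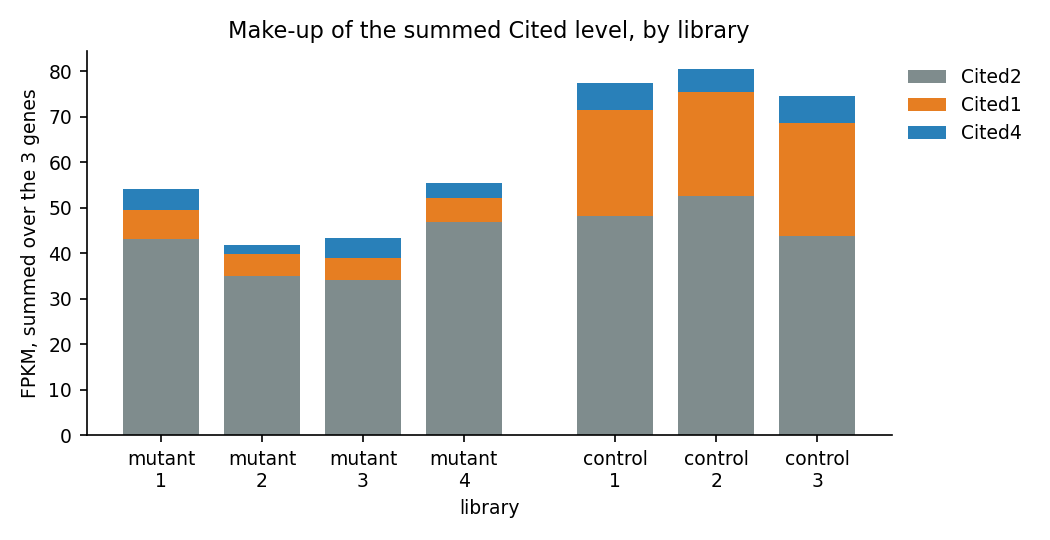
FPKM of Cited2, Cited1 and Cited4 stacked for each library, mutants on the left and controls on the right. The Cited1 segment is 9.17% to 11.7% of the bar in mutants and 28.6% to 33.5% in controls.

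The order of the levels was the same in both groups, Cited2 above Cited1 above Cited4, but the step between Cited1 and Cited4 was narrow in mutants. The ratio of Cited1 to Cited4 was 1.40, 2.38, 1.14 and 1.47 in mutants, against 3.90, 4.64 and 4.24 in controls. The ratio of Cited1 to Cited2 was 0.147, 0.133, 0.144 and 0.108 in mutants, against 0.483, 0.439 and 0.572 in controls. Both ratios were lower in every mutant than in every control. On the log2(FPKM + 1) scale the ratio of Cited1 to Cited2 differed by -1.72 (pooled SD between libraries 0.189) and that of Cited1 to Cited4 by -1.42 (pooled SD 0.263), mutant minus control. The ratio of the paralogues to each other, Cited2 to Cited4, overlapped, at 7.87 to 17.8 in mutants and 7.42 to 10.6 in controls. Set among all genes tested, the mean FPKM over the 7 libraries exceeded that of 60.4% of genes for Cited1, 89.0% for Cited2 and 28.3% for Cited4.

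**Figure D3:**
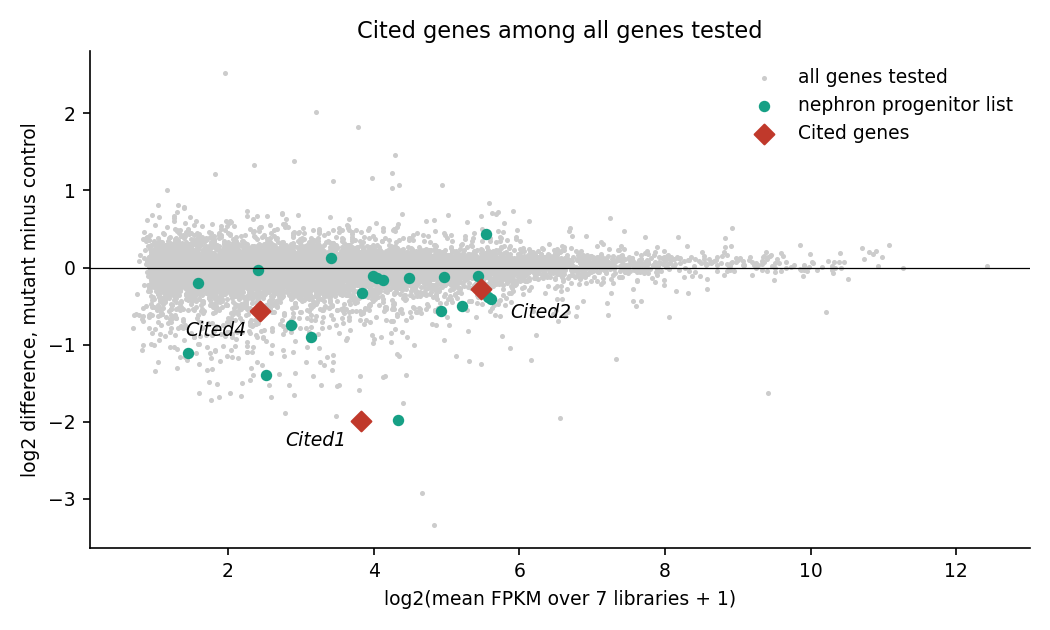
Log2 difference of mutant minus control against log2(mean FPKM + 1) for the 13466 genes tested, with the Cited genes as diamonds and the nephron progenitor list in green. Cited1 lies at -1.99, next to a progenitor gene at -1.98, and Cited2 and Cited4 lie at -0.28 and -0.57.

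None of the genes beside the members passed the test. In GENCODE M21 no gene overlaps any of the 3. The annotation used for counting is not given, so whether reads were shared with a neighbour there was not checked. The nearest tested genes on both sides of Cited1 are Rps4x, a ribosomal protein gene, at a log2 difference of 0.11 (SE 0.10), and Hdac8, a histone deacetylase gene, at 0.09 (SE 0.075). Those beside Cited2 and Cited4 lay between -0.03 and 0.12, and none of the 6 neighbours passed the threshold (limma adjusted p from 0.698 to 0.969). Since Cited1 is X-linked, the Y-linked genes bear on the sex of the embryos: Ddx3y stood at 20.8 to 29.5 FPKM in mutants and 22.7 to 24.9 FPKM in controls, and was present in all 7 libraries. Eif2s3y, Kdm5d and Uty, also Y-linked, were present in all 7 as well. Xist, another gene of the sex-linked list, was not in the deposited table. The sex of the embryos was not tested further.

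Other genes of the nephron progenitors, the cells that Cited1 marks, were next compared. The list held 21 genes other than Cited1, of which 20 were tested; 8 fell, 1 rose and 11 did not pass, where 1.53% of all genes tested passed in either direction. The list's median log2 difference was -0.27, against 0.00 for all genes tested (-0.002). It was drawn up with earlier results of these data known, so it is not independent evidence of a direction. Uncx, a homeobox gene, was at 9.98, 5.63, 7.26 and 9.11 FPKM in mutants, against 36.0, 38.6 and 27.9 FPKM in controls, with a log2 difference of -1.98 (SE 0.18; limma adjusted p = 0.0049). Its groups did not overlap, and its difference matched that of Cited1 within the error. Meox2, another homeobox gene, was at 2.40 ± 0.71 FPKM in mutants and 7.80 ± 0.37 FPKM in controls (log2 difference -1.40, SE 0.16; limma adjusted p = 0.0087). Traf1, an adaptor of TNF receptor signalling, was at 0.827 ± 0.13 FPKM in mutants and 2.94 ± 0.20 FPKM in controls (log2 difference -1.11, SE 0.088). Traf1 was under 1 FPKM in all 4 mutants and passed the filter on low values only through the controls, where it is high, so a difference was built into its being tested and it is left out of the evidence; 7 of the genes that fell remain without it. Tmem100, a small membrane protein gene, was at 4.64 ± 0.45 FPKM in mutants and 8.42 ± 0.47 FPKM in controls (log2 difference -0.74, SE 0.083; limma adjusted p = 0.0077).

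Also called were, chosen for naming once their values were known, Meox1, Pax2, Spock2 and Wt1, with log2 differences from -0.90 to -0.41, and Crym, which rose (0.43, SE 0.059). Several defining progenitor genes had smaller differences that did not pass. Six2, which maintains the progenitors, was at 41.1 ± 8.52 FPKM in mutants and 53.5 ± 8.03 FPKM in controls, with overlap (log2 difference -0.39, SE 0.17; limma adjusted p = 0.384). Eya1, Sall1, Gdnf and the Hox11 genes Hoxa11, Hoxc11 and Hoxd11 had log2 differences from -0.16 to -0.03. The others that did not pass were Rspo1, Dpf3 and Itga8, at -0.13, -0.20 and -0.33, and Osr1, at 0.12. Of the 20 tested, Traf1 included, 18 lay below 0. Groups were apart and lower in mutants for 10 and higher for 1, against 8.61% and 5.93% of all genes tested. Cited1 per Six2 was 0.130, 0.162, 0.114 and 0.117 in mutants, against 0.474, 0.473 and 0.398 in controls, so the Cited1 level was lower relative to Six2 as well, in every mutant. The mean of the 20 tested list genes was 3.74 ± 0.074 in mutants and 4.18 ± 0.0071 in controls on the log2(FPKM + 1) scale (SD, n = 4 and 3). This mean and the list's median include Traf1, which passed the filter only through the controls, so both are descriptions only. The count of calls depended on the libraries: it was 4, 4, 1, 1 and 5 without mutant replicates 2 and 4 and control replicates 1, 2 and 3, with Uncx called in all 7 omissions. Over all genes the calls without these libraries were 42, 33, 14, 11 and 54, in the same order. The filter was applied again after each omission. Traf1 was therefore tested, and called, only in the 4 omissions of a mutant, and was not tested when a control was left out.

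Across the 13466 genes tested, 4 of the 5 genes whose profile over the 7 libraries was nearest to that of Cited1 are reported. Likeness was measured as the root mean square difference between log2(FPKM + 1) profiles, each centred on its own mean. Uncx was the nearest (0.213), followed by the gene model Gm14964 (0.255), while Slc22a19, an organic anion transporter gene, and the gene model Gm49326 took places 4 and 5 (0.378 and 0.383). Slc22a19 reached 1 FPKM in 1 mutant and in all 3 controls, so it passed the filter, and entered this ranking, only through the group where it is high. It also belongs to a family of similar genes whose reads could be split, and Gm49326 rests on 10 to 110 reads. Nearness was set mainly by the shared group difference, as the log2 differences of these 4 lay between -1.98 and -1.48. Of the paralogues, Cited4 was at 0.738 with 303 genes nearer to Cited1, and Cited2 at 0.864 with 932 genes nearer.

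Genes of nephron commitment, the stage at which Cited1 is switched off, came next. All 15 list genes were tested; 2 fell, 0 rose and 13 did not pass, where 1.05% of all genes tested passed as lower and 0.475% as higher. The median log2 difference was -0.33, with 14 below 0. At an unadjusted p under 0.05 stood 10 of the 15, against 13.7% of all genes tested, and 9 had groups apart and lower in mutants, against 8.61%. This list, like those that follow, was drawn up with earlier results of these data known. Its counts are therefore not independent evidence of a direction. Pou3f3, a POU-domain factor of the nephron, was at 12.1 ± 0.93 FPKM in mutants and 17.4 ± 1.29 FPKM in controls (log2 difference -0.49, SE 0.079; limma adjusted p = 0.0308). Wnt4, the signal that starts the epithelial transition, was at 35.0 ± 2.12 FPKM in mutants and 30.0 ± 1.38 FPKM in controls, with no overlap, but did not pass (log2 difference 0.21, SE 0.068; limma adjusted p = 0.181). The list had 0 calls when any 1 control, mutant replicate 2 or else mutant replicate 3 was left out, 1 call without mutant replicate 4, and 5 calls without mutant replicate 1. Over all genes, calls were 486 without mutant replicate 1, 33 without mutant replicate 4 and 11 to 124 in the other omissions.

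The factors that CITED proteins bind were then compared. Of 17 partner genes, 15 were in the table and 12 were tested. None of the 12 passed (0 by limma, 3 at an unadjusted p under 0.05 where 13.7% of all genes tested had one, 0 by limma-voom on recovered reads, and 3 lower in the authors' deposited table), and the median log2 difference was -0.02. The acetyltransferase genes Crebbp and Ep300, which encode CBP and p300, stood at 5.92 ± 1.08 and 6.90 ± 1.91 FPKM in mutants and at 6.03 ± 1.51 and 7.36 ± 1.53 FPKM in controls. Smad4, a shared effector of TGF-beta and BMP signals, was at 38.9 FPKM in both groups (SD 2.25 in mutants and 2.17 in controls), and Hif1a at 37.7 ± 2.99 FPKM in mutants and 36.1 ± 1.60 FPKM in controls. Tfap2b, a factor of the distal nephron, was at 5.93, 6.76, 6.09 and 6.87 FPKM in mutants, against 9.80, 8.61 and 7.91 FPKM in controls. Its groups did not overlap, and its log2 difference of -0.40 (SE 0.088) missed the threshold (limma adjusted p = 0.0714). Hnf4a, a nuclear receptor of the proximal tubule, was at 22.0, 23.7, 16.1 and 23.3 FPKM in mutants, against 29.8, 32.4 and 30.4 FPKM in controls. It too had groups apart and missed the threshold (log2 difference -0.53, SE 0.12; limma adjusted p = 0.0783). In the authors' deposited table Tfap2b, Hnf4a and Ppara, the last of which was under the filter here, were the 3 partner genes with an adjusted p under 0.05, where 5.49% of its genes had one (3.74% lower and 1.75% higher in mutants).

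Targets of the pathways on which CITED proteins act were compared as well. Of 20 tested HIF targets, the genes that CITED2 restrains through HIF, 1 fell, 0 rose and 19 did not pass, a count near the 1.53% of all genes tested that passed. At an unadjusted p under 0.05 stood 5, against 13.7% of all genes tested, and the median log2 difference was -0.003. The gene that fell was Vegfa, which encodes a growth factor for vessels, at 24.5 ± 0.58 FPKM in mutants and 30.1 ± 1.16 FPKM in controls (log2 difference -0.28, SE 0.057; limma adjusted p = 0.0495). That call was lost in 12 of 14 alternatives and kept in the authors' deposited table and without mutant replicate 1. Adm, the adrenomedullin gene and another HIF target, was at 3.22 ± 0.31 FPKM in mutants and 2.15 ± 0.29 FPKM in controls, and did not pass (limma adjusted p = 0.072). The glycolytic targets Pgk1, Ldha and Slc2a1 had log2 differences from -0.001 to 0.04.

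Among genes that respond to SMAD signals, 13 of 15 were tested and none passed (0 by limma, 4 at an unadjusted p under 0.05, 0 by limma-voom, and 1 higher and 1 lower in the authors' deposited table). Of all genes tested, 13.7% had an unadjusted p under 0.05, and 5.49% of genes passed in the authors' deposited table. The list's median log2 difference was -0.04. The smallest p belonged to Tgfbi, a secreted matrix protein gene, at 67.5 ± 7.35 FPKM in mutants and 51.8 ± 2.28 FPKM in controls (log2 difference 0.37, SE 0.088; limma adjusted p = 0.0823). Smad6, an inhibitor of BMP signals, was at 7.69 ± 2.10 FPKM in mutants and 12.2 ± 2.28 FPKM in controls (log2 difference -0.62, SE 0.21; limma adjusted p = 0.236).

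Of 14 Wnt target genes, 13 were tested and none passed (0 by limma, 8 at an unadjusted p under 0.05, 0 by limma-voom, and 4 higher in the authors' deposited table). In cell assays CITED1 has been linked to damping of beta-catenin activity, which is why these genes were included. Of all genes tested, 13.7% had an unadjusted p under 0.05, and 1.75% of genes passed as higher in the authors' deposited table. The list's median log2 difference was 0.12, with 8 above 0 and 5 below. Axin2, a feedback inhibitor of the pathway, was at 9.54, 11.8, 11.6 and 10.6 FPKM in mutants, against 8.44, 8.44 and 8.66 FPKM in controls, with no overlap (log2 difference 0.32, SE 0.080; limma adjusted p = 0.0976). Nkd1, another inhibitor of the pathway, was at 20.1 ± 0.67 FPKM in mutants and 16.5 ± 1.72 FPKM in controls (log2 difference 0.28, SE 0.077; limma adjusted p = 0.121). The groups of 6 tested genes did not overlap with mutants higher, and those of 2 with mutants lower, where 5.93% and 8.61% of all genes tested did so.

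**Figure D4:**
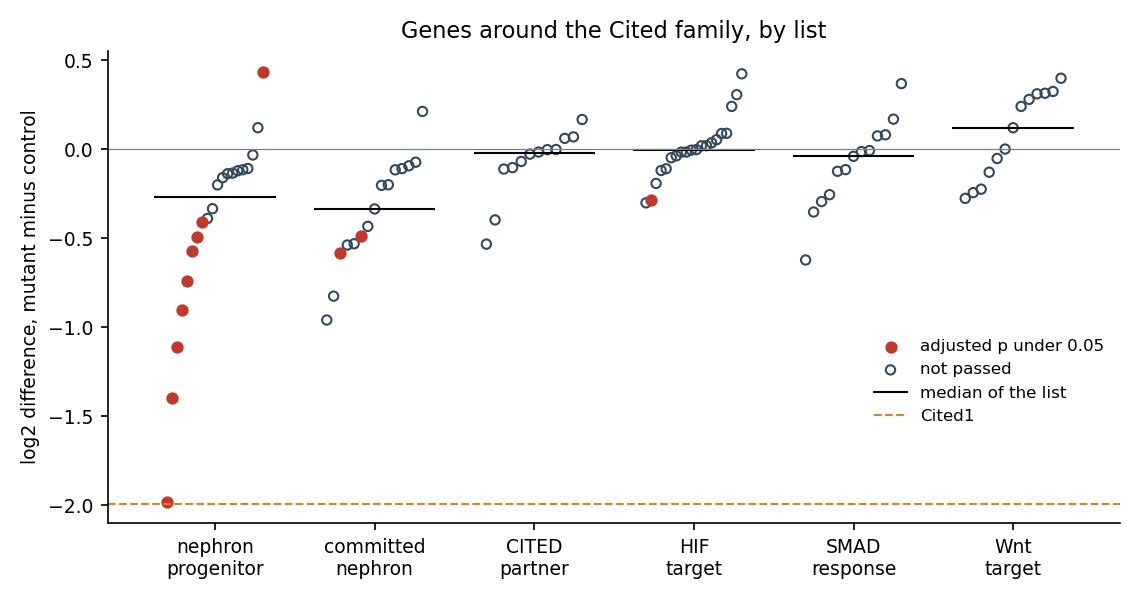
Log2 difference of mutant minus control for every tested gene of 6 lists around the Cited family. Filled points passed an adjusted p under 0.05, lines are list medians, and the dashed line is Cited1 at -1.99, a level reached by no list gene, with the nearest at -1.98.

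Markers of other cells that a whole kidney holds were set beside these results. The summed FPKM of 12 stromal markers was 586 to 816 in mutants and 468 to 670 in controls. That of 10 endothelial markers was 233 to 243 in mutants and 215 to 226 in controls. By limma 0 of either list passed. At an unadjusted p under 0.05 stood 4 of the 12 and 2 of the 10, against 13.7% of all genes tested. The median log2 difference of the stromal list was 0.28, with 11 of 12 genes above 0 and 5 with groups apart and higher in mutants. That of the endothelial list was 0.13, with 9 of 10 genes above 0 and 3 with groups apart and higher in mutants, where 5.93% of all genes tested were so. The 12 ureteric markers summed to 333 to 380 FPKM in mutants and 298 to 318 FPKM in controls. They went both ways, 7 above 0 and 5 below, with a median log2 difference of 0.14. Groups were apart and higher in mutants for 5 and lower for 3, against 5.93% and 8.61% of all genes tested. At an unadjusted p under 0.05 stood 8 of the 12. By limma 1 rose, where 0.475% of all genes tested did. It was Calb1, which encodes the calcium buffer calbindin (71.6 ± 5.43 FPKM in mutants and 43.1 ± 8.89 FPKM in controls), a call kept in 2 of 7 omissions. The 20 listed progenitor genes summed to 351 to 390 FPKM in mutants and 466 to 476 FPKM in controls. Cited2 is also known from the adrenal gland, which lies on the kidney. Of 10 adrenal and gonad markers 4 were in the table, summing to 2.15 to 3.04 FPKM in mutants and 1.73 to 2.38 FPKM in controls, and the 1 tested, Mc2r, the receptor for adrenocorticotropic hormone, rose (limma adjusted p = 0.0472), a call lost in all 7 omissions. Mc2r reached 1 FPKM in all 4 mutants and in 2 of 3 controls, so it passed the filter only through the mutants, where it is high, and nothing is read from that call. Blood markers summed to 3569 to 6249 FPKM in mutants and 3019 to 6001 FPKM in controls. All 11 tested blood genes lay above 0 (median log2 difference 0.24). Of these, 3 had groups apart and higher in mutants, and 0 passed by limma. Skeletal muscle markers summed to 7.30 to 9.69 FPKM in mutants and 8.21 to 56.1 FPKM in controls, the highest in 1 control library. The part of these cell types in the Cited values was not tested.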

How the data were processed

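The data are 7 RNA-seq libraries of E15.5 kidneys, 4 mutant and 3 control, grouped and numbered by their titles. Per the labels' protocols, libraries were made with the NEB Ultra II Directional kit. The processing notes of the submitters name STAR 2.6.0c and HTSeq 0.6.1p2, besides Trim Galore 0.5.0, FastQC 0.11.5 and the DESeq2 test of the authors, and the build mm39 (GRCm39). The strand setting, annotation and gene length are not given in the sources used here. Per the file headers, the authors deposited an FPKM value per library and a DESeq2 comparison of mutant over control. That comparison holds, per the file headers, the mean normalized signal (lowest 18.5), the log2 fold change with its error, the test statistic (a score) and a p-value, raw and adjusted, with none for 14 genes.

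Read counts per library were recovered from the deposited mean counts, FPKM and a size factor per library; 100% of values lay within 0.05 of a whole number. No pair of libraries agreed within counting noise (lowest chi-square per gene 20.4). Genes reaching 1 FPKM in 3 or more libraries (13466; 2701 left out) were compared on log2(FPKM + 1) by limma 3.58.1 under R 4.3.3, with a trended and robust prior, two-sided, and called at a Benjamini-Hochberg adjusted p under 0.05 over all genes tested. The pipeline was tested on simulated data. The members and all 13 gene lists were chosen with earlier results of these data known. Named were the members, Irx3 and Irx5, up to 4 called genes of each of 6 pathway lists (or the 2 with the smallest p), called marker genes and the 5 genes nearest to Cited1 in profile; other genes were chosen for naming after their values were seen, and 2 named genes enter all counts and are not reported here one by one. Alternatives were quantile normalization, a pseudocount of 0.1, a 5 FPKM minimum, tests of all genes unfiltered, the replicate number as a block, limma-voom on recovered reads, the deposited test and leaving out each library. Promoter sequences are RefSeq's on GRCm38.p6 and neighbours were looked up in GENCODE M21, where 16150 of 16167 identifiers were found. Other steps ran in Python 3.11.15 (pandas 2.3.3, numpy 2.4.6; figures with matplotlib 3.10.9).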

Additional observations from a re-analysis of the deposited data

Results flagged for a closer look

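Among the 4 mutant libraries, mutant replicate 2 stood apart from the other mutants for 3 of the values reported here, by the ratio of its gap to the whole range of the group. Gm14964 was at 0.675 FPKM there, Gm49326 at 1.70 FPKM and Mc2r at 1.53 FPKM, each the lowest of the mutants. About 1 in 20 groups is expected to be singled out so by chance, and 30 were tested.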

How the results depend on the processing

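Cited1, chosen on this contrast, was at -2.16 on the log2 scale with a pseudocount of 0.1, -2.18 by limma-voom on recovered reads and -2.17 in the authors' deposited table. The genes called (206) came to 109 with a pseudocount of 0.1, 60 at a minimum of 5 FPKM (31 higher and 29 lower, against 64 and 142), 2 with the replicate block, which were Cited1 and Six3, 886 in the deposited table, and 11 to 486 when a library was left out. Same-numbered libraries deviated from their group means with correlations of -0.156, 0.0276 and 0.098 for numbers 1 to 3. Differently numbered libraries gave -0.253 to 0.141, so same-numbered ones were not more alike by this measure. With 3 such pairs it cannot settle whether the numbers pair the samples. With the replicate block the progenitor and commitment lists had 0 calls each. Leaving out a library gave 1 to 9 progenitor, 0 to 5 commitment, 0 to 1 HIF target, 0 to 1 partner and 0 to 1 Wnt target calls. These stand beside the 11 to 486 calls over all genes. The commitment list had 1 call with a pseudocount of 0.1 or a minimum of 5 FPKM, beside 109 and 60 over all genes. It had 8 of 15 in the deposited table, where 5.49% of all genes passed. The HIF list had 0 calls in the 6 alternatives other than omissions and the deposited table, and 2 in the deposited table. The deposited table called 3 partner, 2 SMAD response and 4 Wnt target genes, to be read against the same 5.49%. Irx5, at -0.01 and not called, was at 0.0311 with quantile normalization and 0.029 in the deposited table, and between -0.12 and 0.11 over the omissions. Of 258 values of 19 other named genes under the alternatives, 184 kept their direction and side of the threshold, 60 lost the threshold, 8 gained it and 6 changed sign, all of Irx5. Reads per library were as few as 10 for Gm49326, 19 for Slc22a19, 24 for Gm14964, 61 for Mc2r and 115 for Cited4. The omissions also had fewer samples, and their calls ran from 11 without control replicate 2 to 486 without mutant replicate 1. The cause of these changes was not tested.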
